A study of Drosophila melanogaster with 80 samples.

Results

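The 32 genes described here encode the contractile apparatus of *Drosophila melanogaster* muscle. They were chosen by name, as the rows of a whole-animal gene count matrix whose FlyBase identifiers map to 32 listed symbols, out of 17697 gene identifiers in all. The rule itself uses no measured value. Of the 32, 6 encode thick-filament proteins, 14 thin-filament proteins, 6 Z-disc proteins, 4 giant sarcomeric proteins or kinases, and 2 a membrane and a nuclear-envelope protein. By the Ensembl annotation of the BDGP6.54 assembly, 3 members lie on chromosome arm 2L, 9 on 2R, 7 on 3L, 9 on 3R, 1 on chromosome 4 and 3 on the X chromosome.

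A sarcomere is built of myosin thick filaments that slide past actin thin filaments anchored in the Z-disc, while troponin and tropomyosin on the thin filament switch contraction on when calcium binds. In the fly, the fibrillar indirect flight muscles, which are activated by stretch, and the tubular muscles of legs, jump muscle and body wall use different isoforms of actin and troponin C. Most larval muscle is broken down at metamorphosis and adult muscle is built anew, so several members have a larval and an adult counterpart.

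Flies were held either under a fluctuating regime of 19 ± 8 °C, which peaked at 27 °C (the high point) and bottomed at 11 °C (the low point), or at 19 °C throughout. Whole animals were collected when the fluctuating regime stood at one or the other extreme, and those kept at 19 °C were collected at the matching times. Larvae were taken after 6 cycles in a 7-day larval treatment, and adult males and adult females after 6 and after 12 cycles in a 13-day adult treatment. This gave 4 groups of larvae, 8 of males and 8 of females, each with 4 libraries of oligo(dT)-enriched RNA, and 80 libraries in all. The labels name no strain, age at the start or number of animals per library. The number of cycles, the age of the flies and the day of sampling move together and cannot be told apart. Adults of 6 and of 12 cycles also carry different replicate numbers, so anything tied to those numbers moves with the cycles. Animals at constant temperature labelled with 6 or 12 cycles passed through no cycle.

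Library totals ran between 87.1 M and 130.7 M counts (median 105 M). The rule for these genes leaves out 1 male library, of the constant low-point group at 6 cycles, in which ovary and eggshell markers summed to 5097 counts-per-million (CPM), against 5.38 to 51.5 CPM in the other males, so 31 male libraries were used. A further 2 male libraries were low in neuron markers: replicate 8 of the constant high-point group at 12 cycles, at 259 CPM, and replicate 1 of the fluctuating high-point group at 6 cycles, at 402 CPM. In females, replicate 3 of the fluctuating low-point group at 6 cycles had the highest value of its group for 31 of the 32 members. All 32 members had counts and passed the filter on low counts in each fit. Tests are edgeR quasi-likelihood tests over all genes of a fit, a member is called higher or lower where its Benjamini-Hochberg adjusted p is under 0.05, and log2 fold changes carry their standard error. The p-values measure the spread between these biological replicates. In whole animals, fewer muscle cells and less muscle RNA per cell cannot be told apart.

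Larvae and adults drew on different actin and troponin C genes. Per kilobase of exon, Act57B, the actin of larval body-wall and many adult muscles, led all members in larvae with a mean of 2144 CPM per kb, against 464 in males and 182 in females. Mlc2, the regulatory myosin light chain, had 980.0 CPM per kb in larvae, against 555 in males and 202 in females, where it led all members. TpnC73F, the main larval troponin C, came after Mlc2 in larvae with 557 CPM per kb, against 31.6 in males and 16.8 in females. In adults the leading troponin C was TpnC4, the flight-muscle isoform, with 202 CPM per kb in males and 98.9 in females. As a share of the 4 muscle actins per exon length, Act57B made up 88.4 ± 2.78% in larvae (SD, n = 16), 47.0 ± 10.5% in males (n = 31) and 57.9 ± 9.92% in females (n = 32). The muscle actin genes are near-identical copies, so the division of reads among them is uncertain.

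**Figure D1:**
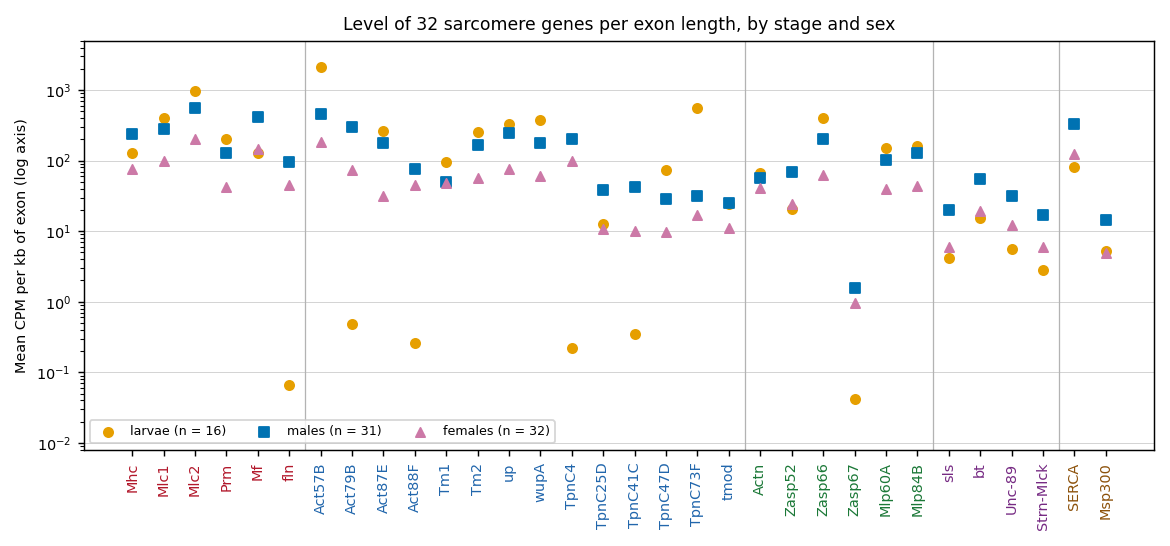
Mean level of the 32 sarcomere genes in larvae, males and females, in CPM per kilobase of exon on a log axis, with the genes grouped by role. Larvae lie above both sexes for Act57B and TpnC73F, and below both sexes and below 1 CPM per kb for fln, TpnC4, Act79B, Act88F, TpnC41C and Zasp67.

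Of the 32 members, 16 were higher and 15 lower in larvae than in adults, where 47.7% of the 16386 genes tested were called higher and 36.2% lower. The median log2 fold change was 0.467 for the members and 0.114 for all genes. The all-gene median moves to -0.236 when libraries are scaled by their totals, with 16 and 15 members called again. TpnC73F was 4.99 ± 0.04 higher on the log2 scale in larvae (edgeR, adjusted p = 2.65e-71), Act57B 3.17 ± 0.07, and TpnC47D, another tubular-muscle troponin C, 2.31 ± 0.10. Zasp66, a Z-disc protein gene, was 2.23 ± 0.03 higher, and wupA, which encodes troponin I, 2.22 ± 0.05. Act87E, a further body-wall actin, was 2.12 ± 0.05 higher, up, which encodes troponin T, 1.61 ± 0.07, and Mlp60A, a muscle LIM protein, 1.55 ± 0.07. SERCA, the sarcoplasmic calcium pump, was lower in larvae at -0.94 ± 0.06, and so were all 4 giant proteins and kinases. Mhc, the muscle myosin heavy chain, did not pass (0.13 ± 0.12, adjusted p = 0.287), with a direction that depended on what larvae were set against: -0.41 under fluctuation alone, -0.54 against males and -0.24 with library totals.

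A set of 6 members was close to absent from larval libraries. The flightin gene fln, whose product is a thick-filament protein of flight muscle, had 0 to 30 counts per larval library (0 to 0.246 CPM) and was at 0 in 7 of 16, against 57.1 to 219 CPM in males and 22.9 to 151 CPM in females. TpnC4 had 0 to 68 counts (0 to 0.559 CPM) and was at 0 in 2 of 16 larval libraries, against 85.8 to 262 CPM in males and 38.1 to 173 CPM in females. Both are known from the stretch-activated flight muscle that larvae do not have. Zasp67, a Z-disc protein gene, had 3 to 44 counts, Act88F, the flight-muscle actin, 15 to 89, TpnC41C, a troponin C of adult tubular muscle, 20 to 134, and Act79B, an actin of adult tubular muscles, 22 to 187. Fitted log2 fold changes, larvae over adults, ran from -9.89 for fln to -4.44 for Zasp67, with -9.10 ± 0.16 for TpnC4, -8.04 ± 0.10 for Act79B, -7.21 ± 0.27 for Act88F and -5.47 ± 0.12 for TpnC41C. These rest on few counts.

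Of the 32 members, 31 were higher and 1 lower in males than in females. The median log2 fold change, males over females, was 1.36 for the members and 0.911 for all genes, and 58.9% of the 16152 genes tested were called higher and 36.8% lower in males. The all-gene median is 1.09 with DESeq2 size factors and 1.12 with library totals, and the members' values stand beside that shift. Higher in males were 5 of 6 neuron (median 1.79), 6 of 6 photoreceptor (1.6), 6 of 6 hemocyte (0.988) and 7 of 7 gut markers (0.704). Of the neuron markers 1 was lower, and of 10 fat body markers 6 were higher and 3 lower. All 8 ovary and eggshell markers were lower (-9.65), and all 7 testis markers higher (9.5). Their part in the members' values was not tested. Act87E differed most: it had a lowest, median and highest value of 278, 364 and 427 CPM in 31 male libraries, against 34.3, 61.3 and 100.2 CPM in 32 female libraries. The ranges did not overlap, and its log2 fold change was 2.34 ± 0.04 (edgeR, adjusted p = 3.78e-48). Act79B followed with 1.89 ± 0.05 and TpnC41C, likewise of tubular muscle, with 1.87 ± 0.04. The flight-muscle isoforms had values nearer the all-gene median, with 0.91 ± 0.15 for Act88F, 0.90 ± 0.05 for TpnC4 and 1.05 ± 0.05 for fln. TpnC73F, also a troponin C of tubular muscle, lay below all of these at 0.69, so the tubular and flight-muscle genes did not separate as classes. The other members named by rule lay between 0.69 for TpnC73F and 1.64 for TpnC25D, with 1.49 for Mhc, 1.16 for Act57B, 1.39 for wupA, 1.55 for up, 1.18 for SERCA, 1.14 for Mlp60A, 1.39 for TpnC47D, 1.58 for sls, which encodes the titin-like protein Sallimus, and 1.55 for Zasp66. Tm1, a tropomyosin gene also used outside muscle, was lower in males at -0.17 ± 0.02, a call that is lost with library totals and with DESeq2 size factors.

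In adults of both sexes and both regimes, most sarcomere genes were lower after 12 than after 6 cycles. In males under fluctuation 2 members were higher and 20 lower after 12 cycles, in males at constant temperature 1 was higher and 25 lower, in females under fluctuation 0 were higher and 27 lower, and in females at constant temperature 0 were higher and 31 lower. Of all genes tested, 16.9% were higher and 17.2% lower in males under fluctuation, 17.7% and 16.4% in males at constant temperature, 3.74% and 4.45% in females under fluctuation, and 23.5% and 22.9% in females at constant temperature. The members' median log2 fold change was -0.266, -0.555, -0.556 and -0.981 in that order, against all-gene medians of 0.0119, -0.00822, 0.00406 and 0.0127. Summed over the 32 members, fluctuating high-point males had 16766 to 18993 CPM after 12 cycles, against 20165 to 24064 CPM after 6 cycles. Constant high-point females had 5719 to 6573 CPM after 12 cycles, against 10318 to 12436 CPM after 6 cycles. The sums after 12 cycles lay below those after 6 cycles, with no overlap, in each of the 8 pairs of groups of one sex, regime and point.

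**Figure D2:**
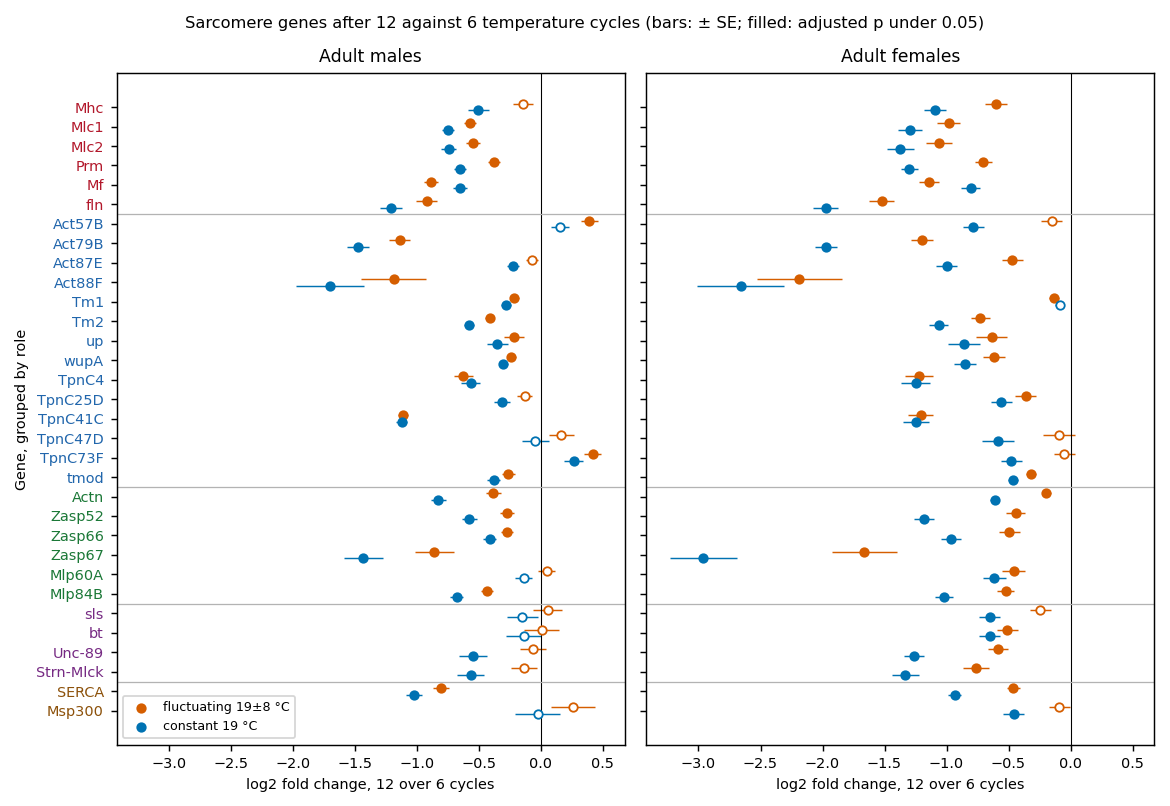
Log2 fold change of each sarcomere gene after 12 over after 6 cycles, with standard error, in males (left) and females (right), under fluctuation (orange) and at constant temperature (blue). Filled symbols have an adjusted p under 0.05; nearly all lie left of 0, with Act88F and Zasp67 furthest in females at constant temperature.

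By role, the thick filament had 5, 6, 6 and 6 of 6 members lower after 12 cycles in fluctuating males, constant males, fluctuating females and constant females. The thin filament had 9, 11, 11 and 13 of 14 lower, the Z-disc 5, 5, 6 and 6 of 6, the giant proteins and kinases 0, 2, 3 and 4 of 4, and the pair of SERCA and Msp300, a nesprin that links nuclei to the muscle, 1, 1, 1 and 2. The members that were higher after 12 cycles were all thin-filament genes of males: TpnC73F in both regimes and Act57B under fluctuation.

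The flight-muscle genes Act88F and fln were among the 4 members with the largest falls in each sex and regime. The gene fln lies on chromosome arm 3L at 19989551 to 19991220 on the minus strand, Act88F on 3R at 15439969 to 15442177, plus strand, Act79B on 3L at 21985210 to 21987190, plus strand, and TpnC41C on 2R at 5065237 to 5070210, minus strand (BDGP6.54). The lowest, median and highest values of fln were 66.8, 84.2 and 97.6 CPM after 12 cycles in males under fluctuation, against 137, 163 and 200.3 CPM after 6 cycles. In females at constant temperature they were 22.9, 25.9 and 33.9 CPM after 12 cycles, against 64.1, 98.9 and 151 CPM after 6 cycles (8 libraries each). The libraries after 12 cycles lay below those after 6 in both regimes of both sexes. The log2 fold changes were -0.92 ± 0.09 in fluctuating males, -1.21 ± 0.09 in constant males, -1.52 ± 0.10 in fluctuating females and -1.97 ± 0.10 in constant females (edgeR, adjusted p = 1.83e-08, 1.57e-10, 3.04e-11 and 3.25e-14). An antisense RNA overlaps exons of fln, and whether counting used strand is given by none of the sources used here.

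Act88F had 31.6, 63.3 and 91.6 CPM after 12 cycles in fluctuating males, against 110.3, 158 and 190.1 CPM after 6 cycles. In fluctuating females it had 10.4, 16.9 and 39.9 CPM after 12 cycles, against 45.6, 80.1 and 214 CPM after 6 cycles. In constant females it had 12.9, 18.5 and 69.1 CPM after 12 cycles, against 65.9, 139 and 287 CPM after 6 cycles. Only in constant females did the ranges touch, through replicate 6 of the low-point group at 12 cycles, which had 69.1 CPM against 12.9 to 18.5 CPM in the other 3 libraries of its group. The log2 fold changes of Act88F were -1.18 ± 0.26 in fluctuating males, -1.70 ± 0.27 in constant males, -2.19 ± 0.34 in fluctuating females and -2.66 ± 0.35 in constant females, all passing. Zasp67, a member of the Zasp family of Z-disc proteins with the lowest level of all members, gave -0.86 ± 0.15, -1.43 ± 0.16, -1.66 ± 0.26 and -2.96 ± 0.27 in the same order. TpnC4 gave -0.62 ± 0.08, -0.56 ± 0.08, -1.22 ± 0.11 and -1.25 ± 0.11, again passing in all 4.

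The tubular-muscle isoforms Act79B and TpnC41C fell as well. TpnC73F and TpnC47D, likewise troponin C genes of tubular muscle, were not called lower in males or in fluctuating females. Act79B had 201, 261 and 331 CPM after 12 cycles in constant males, against 608, 735 and 867 CPM after 6 cycles (8 and 7 libraries). In constant females it had 44.8, 54.4 and 64.5 CPM after 12 cycles, against 149, 208 and 238 CPM after 6 cycles. The ranges were apart in both sexes and regimes, and the log2 fold changes were -1.14 ± 0.09 in fluctuating males, -1.47 ± 0.09 in constant males, -1.20 ± 0.09 in fluctuating females and -1.97 ± 0.09 in constant females. TpnC41C had 47.8, 54.7 and 59.6 CPM after 12 cycles in fluctuating males, against 109, 123 and 135 CPM after 6 cycles. Its fall was close to 1 log2 unit throughout, at -1.11 ± 0.04, -1.12 ± 0.04, -1.21 ± 0.10 and -1.25 ± 0.10 in the same order, with no overlap between the libraries of 12 and of 6 cycles. Act57B and TpnC73F were not lower in males. Act57B had 764, 821 and 1116 CPM after 12 cycles in fluctuating males, against 592, 709 and 756 CPM after 6 cycles, so that all libraries after 12 cycles lay above those after 6. Its log2 fold change was 0.39 ± 0.07 in fluctuating males and 0.16 ± 0.07 in constant males, which did not pass (adjusted p = 0.0997), -0.15 ± 0.08 in fluctuating females, also not passing, and -0.78 ± 0.08 in constant females, which passed. TpnC73F gave 0.42 ± 0.07 and 0.27 ± 0.07 in males, both higher, and -0.05 ± 0.08, not passing, and -0.48 ± 0.08, lower, in females.

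**Figure D3:**
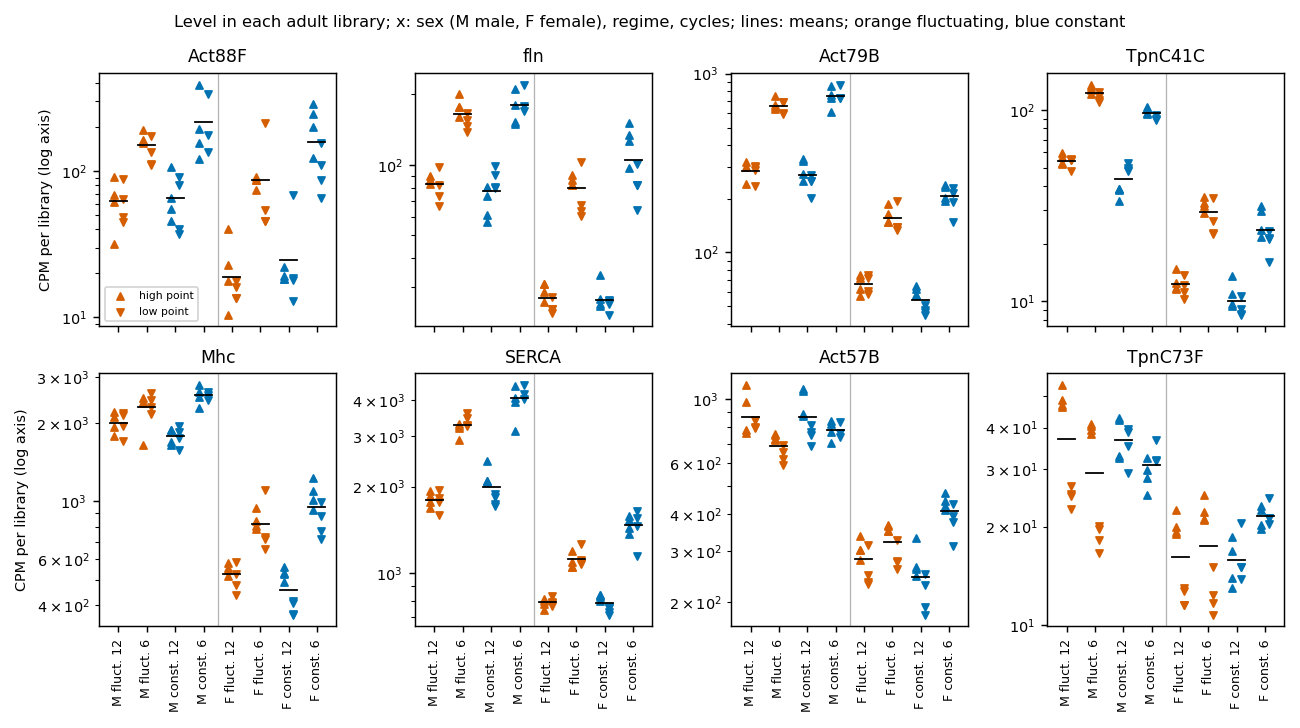
CPM of Act88F, fln, Act79B, TpnC41C, Mhc, SERCA, Act57B and TpnC73F in each adult library on a log axis, by sex, regime and number of cycles, with triangles pointing up for the high and down for the low point and lines for the means. For fln, Act79B and TpnC41C every library after 12 cycles lies below every library after 6 cycles of its sex and regime, while Act57B in males does not fall.

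The make-up of the actin and troponin C pools therefore differed between 12 and 6 cycles. Per exon length, Act57B was 56.8 ± 2.38% of muscle actin in males after 12 cycles, against 36.6 ± 1.48% after 6 cycles (SD, n = 16 and 15). In females it was 66.9 ± 3.04% after 12 cycles, against 48.8 ± 4.38% after 6 cycles (n = 16 each). The share of Act79B was 19.6 ± 1.72% after 12 and 37.4 ± 2.21% after 6 cycles in males, and that of Act88F 4.54 ± 1.498% after 12 and 9.55 ± 3.29% after 6 cycles. TpnC41C made up 9.22 ± 0.669% of troponin C in males after 12 cycles, against 14.5 ± 0.752% after 6 cycles. TpnC4 remained the largest troponin C, at 55.7 ± 5.39% after 12 and 61.0 ± 4.63% after 6 cycles in males.

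Among general sarcomere components, Mhc had 366, 452 and 559 CPM after 12 cycles in constant females, against 717, 961 and 1230.5 CPM after 6 cycles, and the ranges were apart. In fluctuating males Mhc had 1699, 2030.1 and 2201 CPM after 12 cycles, against 1640.4, 2395 and 2609 CPM after 6 cycles, and the ranges overlapped. Its log2 fold changes were -0.14 ± 0.08 in fluctuating males, which did not pass (edgeR, adjusted p = 0.179), -0.50 ± 0.08 in constant males, -0.60 ± 0.09 in fluctuating females and -1.09 ± 0.09 in constant females. SERCA, which pumps calcium back after contraction, was lower throughout, at -0.80 ± 0.06, -1.02 ± 0.07, -0.46 ± 0.05 and -0.94 ± 0.05 in the same order. Fluctuating males had 1593, 1801 and 1951 CPM of SERCA after 12 cycles, against 2911, 3268 and 3609 CPM after 6 cycles, a clear separation. Mf, which encodes myofilin of the thick-filament core, gave -0.88 ± 0.05 in fluctuating males and -1.14 ± 0.08 in fluctuating females. The light chain Mlc2 gave -1.06 ± 0.11 in fluctuating and -1.37 ± 0.11 in constant females, Mlc1, the other myosin light chain, -0.98 ± 0.09 in fluctuating females, Prm, which encodes paramyosin, -1.30 ± 0.07 in constant females and Strn-Mlck, a giant stretchin kinase gene, -1.33 ± 0.11 in constant females. In constant males Actn, alpha-actinin of the Z-disc, gave -0.83 ± 0.06 and Mlc1 -0.75 ± 0.05; an exon of usp overlaps Actn on the same strand.

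Most of the remaining members named by rule had smaller values. Log2 fold changes in fluctuating males, constant males, fluctuating females and constant females were -0.07, -0.22, -0.47 and -1.0 for Act87E, of which the one in fluctuating males did not pass. For the troponin T gene up they were -0.22, -0.35, -0.64 and -0.86, and for wupA -0.24, -0.30, -0.62 and -0.85, all lower. Mlp60A gave 0.05 and -0.14 in males, not passing, and -0.46 and -0.61 in females, both lower. TpnC47D passed in constant females alone, at -0.58, with 0.17 in fluctuating males, -0.04 in constant males and -0.09 in fluctuating females. Tm1 gave -0.09 in constant females and was the single member that did not pass there.

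Taking both points of a sex and regime together, the libraries after 12 cycles lay wholly below those after 6 cycles for 15 members in fluctuating males, 23 in constant males, 24 in fluctuating females and 21 in constant females. In fluctuating males 1 member, Act57B, lay wholly above. Within a single point the counts below were 17 and 19 in fluctuating males, 24 and 24 in constant males, 29 and 26 in fluctuating females and 30 and 28 in constant females, at the high point and then the low point. The share of all genes with ranges apart was not computed, so how unusual these member counts are is not known. Without the 2 male libraries low in neuron markers 23 members were called in fluctuating males and 26 in constant males. Leaving out 1 library at a time gave 21 to 22 calls in fluctuating males, 26 to 27 in constant males, 26 to 28 in fluctuating females and 31 to 32 in constant females.

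Of 28 further muscle genes counted, among them attachment, dystrophin-complex and calcium-release genes, 4 were higher and 4 lower after 12 cycles in fluctuating males, 4 and 11 in constant males, 0 and 5 in fluctuating females and 0 and 21 in constant females. Their median log2 fold changes were 0.0446, -0.109, -0.0685 and -0.272 in that order. Markers of other cell types moved with the same comparison. In females at constant temperature 6 of 6 photoreceptor markers and 5 of 6 neuron markers were lower after 12 cycles, 1 neuron marker was higher, and 3 of 8 ovary and eggshell markers were higher. There 4 of 5 tested testis markers (median 1.34) and 2 of 5 tested accessory gland markers were higher, and 3 of 5 tested cuticle markers (median -1.63), 2 of 6 hemocyte and 2 of 10 fat body markers were lower. In constant high-point females the photoreceptor markers summed to 1123 to 1432 CPM after 12 cycles, against 1678 to 1787 CPM after 6 cycles. In females under fluctuation 2 of 6 photoreceptor and 2 of 6 neuron markers were lower, 3 of 8 ovary and eggshell markers were higher, and of 10 fat body markers 3 were higher and 1 lower. In males under fluctuation 7 of 7 gut markers were higher after 12 cycles, 3 of 7 testis markers were lower, and 0 of 6 neuron and 0 of 6 photoreceptor markers were called. In males at constant temperature 5 of 7 gut markers were higher, 5 of 10 fat body, 4 of 8 cuticle, 3 of 7 testis and 2 of 6 photoreceptor markers were lower, and 3 of 8 ovary and eggshell and 2 of 10 fat body markers higher. There 0 of 6 neuron markers were called. In both regimes 5 of 6 accessory gland markers were lower. The part of these markers in the members' results was not tested.

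The distance between 12 and 6 cycles was itself different between the sexes. In a comparison added after the data had been seen, 26 members had a higher log2 fold change in males than in females and 3 a lower one, where 15.5% of all genes had a higher and 8.8% a lower one. The members' median difference was 0.433, against 0.0338 for all genes. It was 1.13 ± 0.22 for Zasp67, 0.95 ± 0.31 for Act88F, 0.71 ± 0.08 for Act57B, 0.67 ± 0.10 for Strn-Mlck, 0.65 ± 0.09 for fln, 0.61 ± 0.10 for TpnC4, 0.58 ± 0.08 for TpnC73F, 0.49 ± 0.08 for Mhc and 0.25 ± 0.09 for Act79B. The members that fell further in males were SERCA (-0.25 ± 0.06), Actn (-0.23 ± 0.05) and Tm1 (-0.17 ± 0.04). The difference for TpnC41C did not pass (0.08 ± 0.08, edgeR, adjusted p = 0.529). Of the 28 other muscle genes 14 were higher and 1 lower in this comparison, as were 4 and 0 of 7 gut, 3 and 0 of 6 neuron, 2 and 0 of 6 photoreceptor and 0 and 3 of 10 fat body markers, whose part in the result was not tested.

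The regimes were compared within each sex at each point, averaging 12 and 6 cycles. In males at the high point 8 members were higher under fluctuation and 7 lower, where 18.2% of all genes were higher and 19.7% lower. In males at the low point 5 were higher and 2 lower (12.3% and 15% of all genes), a split of 5 and 5 with library totals. In females at the high point 2 were higher and 13 lower (15.4% and 15.3%), and at the low point 3 were higher and 3 lower (11.4% and 11.4%). The members' medians were -0.0562, 0.023, -0.164 and 0.0408, against all-gene medians of -0.00225, 0.000881, -2.8e-05 and 0.0107. Against the background of all genes, the shares of members called higher or lower were near it or below it except for the 13 lower in females at the high point. Of the 28 other muscle genes, 2 were higher and 16 lower in males at the high point and 2 higher and 10 lower in females at the high point. In females at the high point 5 of 8 ovary and eggshell and 3 of 7 gut markers were higher, 3 of 6 photoreceptor and 2 of 6 hemocyte markers were lower, and of 10 fat body markers 4 were higher and 4 lower; their part in the 13 lower members was not tested.

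**Figure D4:**
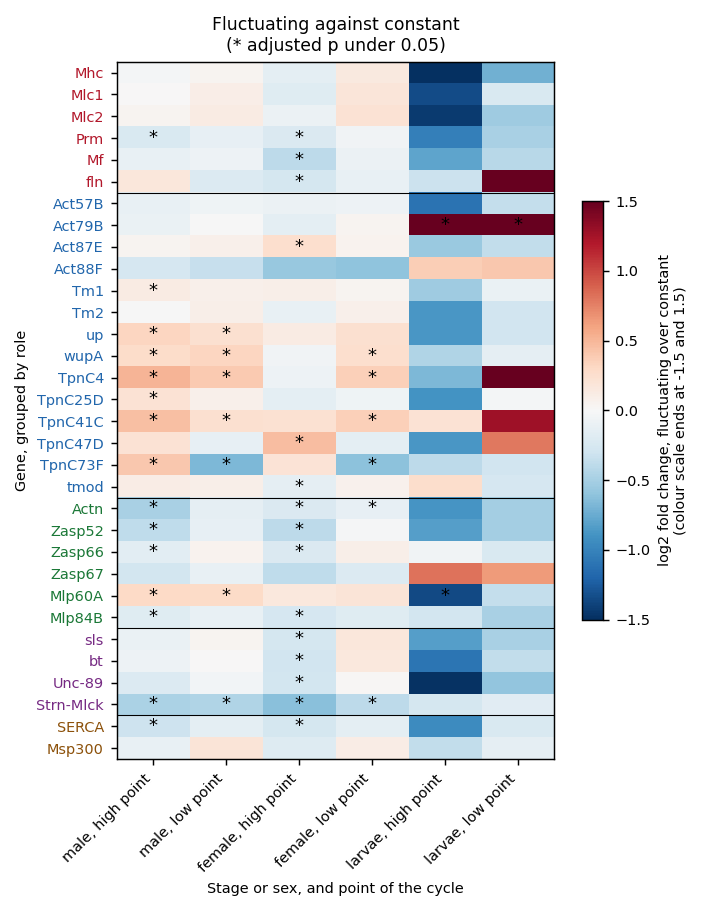
Log2 fold change of each sarcomere gene under fluctuation over constant temperature, in males, females and larvae at the high and the low point, as colours limited to 1.5 log2 units in either direction; asterisks mark an adjusted p under 0.05. Strn-Mlck is lower in all 4 adult columns, and TpnC73F is lower at the low point in both sexes.

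Strn-Mlck was lower under fluctuation in all 4 adult comparisons, at -0.48 ± 0.11 in males at the high point, -0.45 ± 0.11 in males at the low point, -0.62 ± 0.11 in females at the high point and -0.40 ± 0.10 in females at the low point (edgeR, adjusted p = 7.39e-04, 0.00293, 5.59e-05 and 0.00665). Its lowest, median and highest values in males at the high point were 309, 456 and 596 CPM under fluctuation, against 396, 680.3 and 817 CPM at constant temperature. These ranges, which pool flies of 12 and 6 cycles, overlapped. The fold changes likewise average 12 and 6 cycles. After 12 cycles alone Strn-Mlck was not called lower in females at either point or in males at the low point. Exons of Strn-Mlck overlap genes on the other strand. TpnC4 was higher under fluctuation in males, at 0.51 ± 0.08 at the high point and 0.40 ± 0.08 at the low point, and in females at the low point, at 0.35 ± 0.11. Its value in females at the high point was -0.07 ± 0.11 and did not pass. TpnC41C was higher in males at both points (0.45 ± 0.04 and 0.24 ± 0.04) and in females at the low point (0.35 ± 0.10). In males, wupA (0.28 at the high point and 0.33 at the low point), up (0.33 and 0.25) and Mlp60A (0.30 and 0.29) were higher at both points, and wupA was also higher in females at the low point (0.25).

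TpnC73F, on 3L at 17046063 to 17048390, plus strand, differed between the regimes in opposite directions at the high and low point in males. Males at the low point had 16.7, 21.3 and 26.6 CPM under fluctuation, against 29.1, 35.2 and 39.7 CPM at constant temperature. Females at the low point had 10.8, 12.0 and 15.1 CPM under fluctuation, against 13.9, 20.4 and 24.5 CPM at constant temperature. Males at the high point had 38.2, 43.6 and 54.0 CPM under fluctuation, against 24.96, 32.4 and 42.8 CPM at constant temperature. The male ranges at the low point did not overlap, the female ones at the low point and the male ones at the high point did. The log2 fold changes were 0.40 ± 0.07 at the high point and -0.67 ± 0.07 at the low point in males, and 0.21 ± 0.08 at the high point, not passing (adjusted p = 0.0595), and -0.62 ± 0.08 at the low point in females.

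At the high point the Z-disc genes Actn, Zasp52, Zasp66 and Mlp84B were lower under fluctuation in both sexes, with Prm and SERCA. Of the other Z-disc genes, Mlp60A was higher in males (0.30), and Zasp67 passed in neither males (-0.28) nor females (-0.38). Actn gave -0.48 ± 0.06 in males and -0.22 ± 0.04 in females, Zasp52 -0.38 ± 0.06 and -0.39 ± 0.08, SERCA -0.31 ± 0.06 and -0.26 ± 0.05, Prm -0.23 ± 0.05 in males and Mf -0.40 ± 0.08 in females. The titin-like genes bt, for projectin, and sls, and Unc-89, for obscurin, were lower in females at the high point, at -0.29, -0.27 and -0.27. Act87E (0.25) and TpnC47D (0.46) were higher there, and fln was lower (-0.26). The members named by rule that did not pass in males at the high point were Mhc (-0.03), Act88F (-0.26), Act79B (-0.10), Act57B (-0.12), Act87E (0.04), fln (0.17) and TpnC47D (0.22). Members named by rule that did not pass in males at the low point had values of 0.04 for Mhc, -0.34 for Act88F, -0.01 for Act79B, -0.07 for Act57B, -0.21 for fln, 0.07 for Act87E, -0.12 for TpnC47D and -0.15 for SERCA. Those in females at the low point were 0.14 for Mhc, -0.61 for Act88F, 0.04 for Act79B, -0.08 for Act57B, -0.11 for fln, 0.05 for Act87E, -0.15 for TpnC47D, 0.24 for up, 0.19 for Mlp60A and -0.14 for SERCA, and Actn was lower (-0.13). In females at the high point Mhc (-0.15), Act88F (-0.57), Act79B (-0.15), Act57B (-0.08), TpnC41C (0.23), up (0.13), wupA (-0.06) and Mlp60A (0.16) did not pass either.

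In females the members called after 6 cycles were all lower under fluctuation, while after 12 cycles most of the fewer called were higher. In females at the high point 3 members were higher and 1 lower under fluctuation after 12 cycles, and 0 higher and 20 lower after 6 cycles. Of all genes, 6.42% were higher and 5.55% lower after 12 cycles, and 15.1% and 15.5% after 6 cycles. At the low point 8 were higher and 1 lower after 12 cycles (7.46% and 5.92% of all genes), and 0 higher and 10 lower after 6 cycles (12.8% and 13.7%). In males at the high point 8 were higher and 4 lower after 12 cycles (11.1% and 11.8%), and 4 higher and 7 lower after 6 cycles (11.2% and 12.5%). At the low point 4 were higher and 1 lower after 12 cycles (6.11% and 8.48%), and 5 higher and 8 lower after 6 cycles (9.7% and 11.4%). The single member lower after 12 cycles was Mf in females at the high point (-0.62) and TpnC73F in females at the low point (-0.37) and in males at the low point (-0.48). In females at the high point after 6 cycles the largest differences were -1.38 for Act88F, -1.32 for Zasp67, -0.93 for Strn-Mlck and -0.77 for Zasp52.

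The test of this difference, the regime effect after 12 minus that after 6 cycles averaged over the points, called 19 members higher and 1 lower in females, where 15.3% of all genes were higher and 15.8% lower. In males it called 1 higher and 0 lower (0.314% and 0.169% of all genes). The members' medians were 0.2 in males and 0.422 in females, against all-gene medians of -0.0036 and 0.0234, and 30 of 32 values were above 0 in each sex. In males the called member was Actn (0.45 ± 0.08), and 18 members had an unadjusted p under 0.05. How many of all genes fell under that cut is not given here. Whether the sexes differ in this contrast was not tested. The other males' values included 0.33 for Act79B, 0.36 for Mhc and 0.51 for Act88F. In females Zasp67 gave 1.30 ± 0.36, Act79B 0.78 ± 0.12, Zasp52 0.74 ± 0.11, Unc-89 0.68 ± 0.12, Act57B 0.63 ± 0.12, Prm 0.60 ± 0.09, Strn-Mlck 0.57 ± 0.15 and Act87E 0.53 ± 0.12. Mhc (0.49), TpnC47D (0.49), SERCA (0.47), fln (0.45) and TpnC73F (0.43) were also higher, with Mlp84B (0.50), Zasp66 (0.47), Actn (0.42), sls (0.41), Msp300 (0.37) and Tm2, the other tropomyosin gene (0.34). Mf was the lower one (-0.34). This difference is the same arithmetic contrast as the 12-to-6-cycle change under fluctuation minus that at constant temperature. With the high point alone 9 members passed in females, and with the low point alone 12. In the same female contrast 16 of the 28 other muscle genes were higher and 0 lower. All 6 photoreceptor and 4 of 10 fat body markers were higher, and 4 of 5 tested testis and 3 of 5 tested accessory gland markers lower, and their part in the result was not tested.

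The sampling points were compared within each regime. In females at constant temperature, where the temperature was the same at both points, 22 members were higher at the high point and 0 lower, where 10.9% of all genes were higher and 10.3% lower, with medians of 0.293 for the members and 0.017 for all genes. The largest differences were 0.46 ± 0.08 for bt, 0.45 ± 0.11 for TpnC4, 0.42 ± 0.09 for Mlc1, 0.41 ± 0.10 for Mlc2, 0.41 ± 0.09 for Mhc, 0.41 ± 0.08 for sls, 0.40 ± 0.10 for fln and 0.40 ± 0.09 for wupA. The count was 5 after 12 cycles alone and 12 after 6 cycles alone. With it 4 of 6 photoreceptor, 2 of 6 neuron, 5 of 10 fat body and 3 of 5 tested cuticle markers (cuticle median 2.27) were higher. Going the other way, 1 fat body and 1 of 5 tested accessory gland markers were lower, and of 7 gut markers 2 were higher and 1 lower. Of the 28 other muscle genes 4 were higher and 1 lower (median 0.0647). The part of these genes in the members' result was not tested. In males at constant temperature 0 were higher and 1 lower (3.31% and 4.16% of all genes). That member was TpnC41C (-0.14 ± 0.04), a call that was kept in 14 of the 31 fits that leave out 1 library. After 12 cycles alone 12 male members were called, 6 higher and 6 lower, and after 6 cycles alone 0. The shares of all genes for these fits of 1 cycle count are not given here.

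Under fluctuation, 3 members were higher and 4 lower at the high than at the low point in males (18.5% and 15.8% of all genes), a split of 5 and 2 with library totals, and 4 were higher and 0 lower in females (13.4% and 12.1%). TpnC73F and TpnC47D, both troponin C genes of tubular muscle, were higher at the high point in both sexes. TpnC73F had 38.2, 43.6 and 54.0 CPM at the high point in fluctuating males, against 16.7, 21.3 and 26.6 CPM at the low point. In fluctuating females it had 19.0, 21.0 and 25.02 CPM at the high point, against 10.8, 12.0 and 15.1 CPM at the low point. The ranges were apart in both sexes, with log2 fold changes of 1.0 ± 0.07 in males and 0.81 ± 0.08 in females (edgeR, adjusted p = 1.07e-11 and 2.94e-08). TpnC47D gave 0.50 ± 0.10 in males and 0.61 ± 0.13 in females. TpnC25D, a further troponin C gene, was higher in males (0.18), and Act87E (0.36) and Act57B (0.31) in females. Without replicate 3 of the fluctuating low-point females at 6 cycles, 12 members were higher and 0 lower in females, among 3242 genes called in all. The male genes lower at the high point were Zasp66 (-0.21), Actn (-0.19), Zasp52 (-0.17) and Mf (-0.15).

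The regime effect at the high minus that at the low point was higher for 3 and lower for 3 members in males (12.7% and 10.8% of all genes), a split of 3 and 1 with library totals. It was higher for 2 and lower for 5 in females (9.78% and 10.2%). TpnC73F gave the largest difference in each sex, 1.07 ± 0.10 in males and 0.82 ± 0.12 in females. In males fln (0.38) and TpnC41C (0.21) were also higher, and Actn (-0.35), Zasp52 (-0.26) and Zasp66 (-0.22) lower. In females TpnC47D (0.61) was also higher, and bt (-0.44), sls (-0.43), Zasp52 (-0.37), Mf (-0.31) and tmod, which encodes the thin-filament cap tropomodulin (-0.20), lower. The female count was 11 without replicate 4 of the constant low-point group at 6 cycles, among 2936 genes called in all. The male count was 3 without replicate 3 of the constant low-point group at 6 cycles, among 3466 genes called.

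Larval libraries varied widely within groups. The summed CPM of the 32 members was 11202 to 22140 in fluctuating high-point larvae, 9629 to 20381 in fluctuating low-point larvae, 19037 to 33299 in constant high-point larvae and 14636 to 17956 in constant low-point larvae. Mhc had 301, 447, 1045 and 1734 CPM in the 4 fluctuating high-point libraries, against 1165, 2622, 2845 and 2873 CPM in the 4 constant high-point libraries. The ranges overlapped, and the log2 fold change of -1.49 ± 0.59 did not pass (edgeR, adjusted p = 0.154). At the high point 1 member was higher and 1 lower under fluctuation, where 2.1% of all genes were higher and 2.26% lower, and at the low point 1 was higher and 0 lower (0.437% and 0.67%). The members' medians were -0.808 at the high point and -0.269 at the low point, against 0.0315 and 0.00514 for all genes. At these points 20 and 5 members had an unadjusted p under 0.05, a cut for which the share of all genes is not given.

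**Figure D5:**
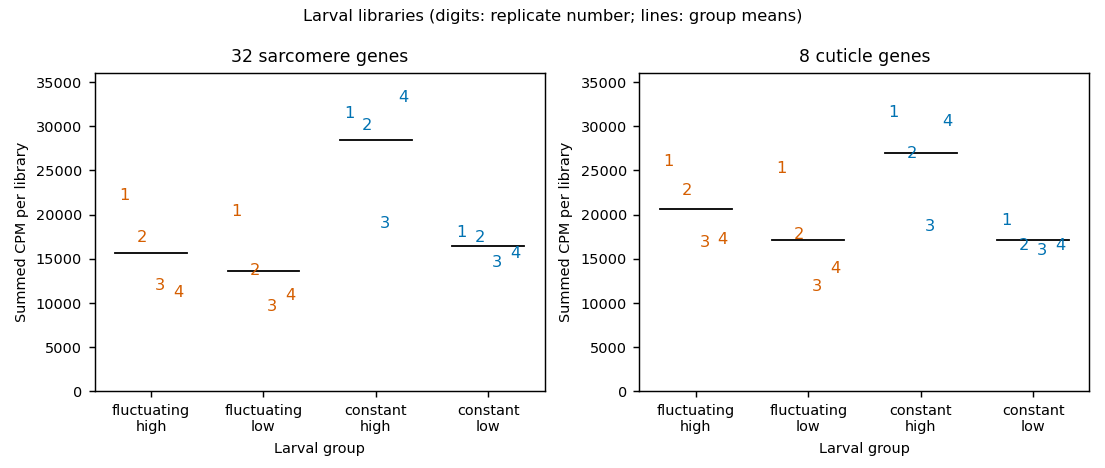
Summed CPM of the 32 sarcomere genes and of 8 cuticle genes in each larval library, by regime and point; digits are replicate numbers. The constant high-point libraries reach 33299 CPM for the sarcomere genes, with replicate 3 apart at 19037.

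The larval gene that was higher under fluctuation at both points was Act79B, with 0.952, 0.954, 1.21 and 1.35 CPM in fluctuating high-point larvae, against 0.211, 0.221, 0.289 and 0.692 CPM in constant high-point larvae. At the low point it had 1.03, 1.25, 1.30 and 1.64 CPM under fluctuation, against 0.268, 0.300, 0.303 and 0.419 CPM at constant temperature. The ranges were apart at both points, at 22 to 187 counts per library, with log2 fold changes of 1.62 ± 0.35 at the high point and 1.91 ± 0.35 at the low point. The call held in 13 of 16 fits that leave out 1 library at the high point and in 12 of 16 at the low point, where it was lost without replicate 1, 3 or 4 of the constant or replicate 1 of the fluctuating low-point larvae. Mlp60A was lower at the high point (-1.35 ± 0.36), with 189, 211, 344 and 407 CPM under fluctuation, against 434, 672, 846 and 849.9 CPM at constant temperature, and this call held in 4 of 16 such fits. The other members named by rule did not pass in larvae at the high point, among them Act57B (-1.11), Act87E (-0.56), up (-0.87), wupA (-0.45), TpnC73F (-0.39), TpnC47D (-0.87) and SERCA (-0.95). The count of members called at the high point ran from 0 to 13 over those fits: it was 0 or 1 in 12 of them, 4 without replicate 3 of the fluctuating low-point larvae, 10 without replicate 3 of the constant high-point larvae, 13 without replicate 1 of the fluctuating high-point larvae and 11 without replicate 1 of the fluctuating low-point larvae. The calls over all genes moved too: 659, 1137, 1162 and 876 genes in those fits, in that order. In the fits with 0 or 1 member, 167 to 590 genes were called. With library totals 2 were higher and 9 lower, DESeq2 called 15 and a replicate block 16. The shares of all genes called in these runs are not given here, so the member counts have no background. With the compared groups alone 0 were called, so that neither Act79B nor Mlp60A passed there. Cuticle markers had lower values in the same larvae: of 8, 0 were higher and 1 lower at the high point, with a median of -1.35, and they summed to 16795 to 25981 CPM under fluctuation, against 18665 to 31601 CPM at constant temperature. Their part in the result was not tested.

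Between the points, 0 members were called in constant larvae by edgeR (0.349% of all genes higher and 0.0683% lower). An unadjusted p under 0.05 was found for 21 members, and DESeq2 called 11 higher and 0 lower. For the unadjusted and the DESeq2 counts the shares of all genes are not given here. Without replicate 3 of the constant high-point larvae, edgeR called 9 higher, among 1322 genes called in all. The count was 4, among 727 genes called, without replicate 1 of the fluctuating low-point larvae. The median was 0.772, high over low point, against -0.0299 for all genes, and 2 of 8 cuticle markers were higher with a median of 1.89. In fluctuating larvae tmod was the single member called (0.49 ± 0.08; 3.25% of all genes higher and 1.72% lower). It had 209, 228, 258 and 267 CPM at the high point, against 178, 179.8, 180.1 and 194 CPM at the low point, with no overlap. Its regime effect was also higher at the high than at the low point (0.52 ± 0.11), the single member called, where 0.895% of all genes were higher and 0.793% lower, and that call held in 4 of 16 fits that leave out 1 library.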

How the data were processed

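Oligo(dT)-enriched RNA of whole animals was sequenced, and the values used are the estimated counts per gene that the authors deposited as 1 matrix of 17697 gene identifiers in 80 libraries. Per the submitters' processing notes the tools were FastQC, Trimmomatic, HISAT2 and StringTie and the build was BDGP6; their versions, the annotation and the use of strand are given by none of the sources used here. Of the deposited values from 1 to 24, 36.8% are multiples of 4, against 25% if evenly spread; how many counts 1 sequenced fragment is worth was not measured, so the precision of low counts is uncertain. Total counts per library were 87.1 M to 130.7 M.

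Identifiers were named from an Ensembl annotation of BDGP6.54 and 17559 matched. Coordinates are 1-based. CPM values are counts-per-million of the library total, with no further scaling, and levels compared between genes were divided by summed exon length. Expected counts were rounded to whole numbers and tested with edgeR 4.0.16 in R 4.3.3 (TMM scaling, filterByExpr with a minimum count of 10, quasi-likelihood test, Benjamini-Hochberg adjustment over all genes of a fit, threshold 0.05), which was tested on simulated data. Larvae (14634 genes), females (13471) and males (15945) were fitted separately, adults together (16152) and all libraries together (16386). The tested contrasts were the regimes at each point, the points in each regime, 12 against 6 cycles in each regime, the differences between those effects, males against females, and larvae against adults. Among 120 replicate pairs no duplicated library was found.

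Genes named in each comparison were up to 8 passing members with the largest change plus 14 listed isoform and core genes; others named were chosen after their values were seen. The members, the marker lists and the tests were chosen with earlier results of these data known. Of 29 further muscle genes 28 were counted. Alternatives were DESeq2 1.42.0 with its own test, DESeq2 size factors, library totals, no filter, counts divided by 4, a replicate block, fits of the compared groups, of 1 cycle count or of 1 point alone, and leaving out each library. Sequences of members were not analysed here.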

Additional observations from a re-analysis of the deposited data

Results flagged for a closer look

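The groups of 4 libraries were tested for a library far from the other 3, for the members' summed CPM and for chosen single members. These measures share libraries, so the tests are not independent and no chance rate is given. Of 209 such tests, 19 flagged a library. Several were replicate 3 of the fluctuating low-point females at 6 cycles. There the 32 members summed to 10807 CPM, against 7928 to 8192 CPM in the other 3 libraries, Mhc had 1107 CPM, Act88F 214, Act79B 194, fln 103 and Strn-Mlck 289 CPM. In males, replicate 1 of the fluctuating high-point group at 6 cycles summed to 20165 CPM, against 23465 to 24064 CPM, with 1640.4 CPM for Mhc. In larvae, replicate 3 of the constant high-point group had 1165 CPM of Mhc, against 2622 to 2873 CPM, and replicate 2 had 0.692 CPM of Act79B, against 0.211 to 0.289 CPM. Among constant low-point larvae, replicate 3 had 0.0900 CPM of fln, which was listed at 0 in the other 3, and 0.680 CPM of TpnC41C, against 0.200 to 0.278 CPM, and replicate 2 had 637 CPM of TpnC73F, against 527 to 542 CPM. Single libraries at 12 cycles were far out for Act88F (69.1 CPM, constant low-point females, replicate 6), Mlp60A (114 CPM, fluctuating low-point females, replicate 6), TpnC41C (33.5 CPM, constant high-point males, replicate 8, and 47.8 CPM, fluctuating low-point males, replicate 5) and SERCA (2464 CPM, constant high-point males, replicate 7). Mlp60A had 225 CPM in replicate 4 of the constant high-point males at 6 cycles, against 313 to 325 CPM.

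Among the members named by rule, the following effects differed between groups by edgeR's test of the difference itself, in log2 units; other members were called as well. The regime effect at the high minus the low point differed for TpnC73F (1.07), fln (0.38), TpnC41C (0.21), Actn (-0.35), Zasp52 (-0.26) and Zasp66 (-0.22) in males. In females it differed for TpnC73F (0.82), TpnC47D (0.61), Mf (-0.31), tmod (-0.20), Zasp52 (-0.37), sls (-0.43) and bt (-0.44), and in larvae for tmod (0.52). The regime effect after 12 minus after 6 cycles differed for Actn in males (0.45). In females it differed for Zasp67 (1.30), Act79B (0.78), Zasp52 (0.74), Unc-89 (0.68), Act57B (0.63), Prm (0.60), Strn-Mlck (0.57), Act87E (0.53), Mhc (0.49), TpnC47D (0.49), SERCA (0.47), fln (0.45) and TpnC73F (0.43). The difference between 12 and 6 cycles, males minus females, was 1.13 for Zasp67, 0.95 for Act88F, 0.71 for Act57B, 0.67 for Strn-Mlck, 0.65 for fln, 0.61 for TpnC4, 0.59 for Unc-89 and 0.58 for TpnC73F. It was 0.56 for Act87E, 0.49 for Mhc, 0.46 for Mlp60A, 0.43 for up, 0.43 for wupA, 0.37 for TpnC47D, 0.25 for Act79B and -0.25 for SERCA.

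The male library that was left out, replicate 2 of the constant low-point group at 6 cycles, held 5097 CPM of ovary and eggshell markers, against 5.38 to 51.5 CPM in the other males.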

How the results depend on the processing

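The counts of members called after 12 against 6 cycles, between males and females and between larvae and adults moved by less than 1.5 times under each alternative run. Larval counts moved under several alternatives. The causes of the shifts given here were not tested, and the shares of all genes called under the alternatives are not given. At the high point 2 larval members were called between the regimes, 11 with library totals, 1 with no filter, 15 with DESeq2, 16 with the replicate block and 0 with the compared groups alone. Between the points, 0 were called in constant larvae, 2 with library totals, 11 with DESeq2, 10 with the replicate block and 12 with the compared groups alone, and in fluctuating larvae 1, with 2 under DESeq2 and 2 under the replicate block. Same-numbered larvae had a median correlation of -0.00478 over all genes (highest 0.629), with 9 of 24 pairs over 0.1. Larvae of other numbers had a median of -0.0144. In adults 4 of 217 same-numbered pairs were over 0.1 (highest 0.122). Pairs over 0.1 were not counted among libraries of other numbers, so whether the numbers pair the larval samples is not settled. In males at constant temperature the replicate block left 0 of 1 between the points.

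Adult counts moved when the cycle counts were fitted alone. Between the regimes in females, 15 were called at the high point and 4 after 12 cycles alone, and 6 at the low point, with 10 after 6 cycles alone and 3 with the compared groups alone; in males 7 at the low point and 13 after 6 cycles alone. Between the points, constant females had 22, with 5 after 12 and 12 after 6 cycles alone, and fluctuating females 4, with 2 after 12 cycles alone. Constant males had 1, with 12 after 12 and 0 after 6 cycles alone, 2 with DESeq2 and 0 without the 2 libraries low in neuron markers, and fluctuating males 7, with 4 after 12 and 3 after 6 cycles alone. The difference of regime effects between the points gave 7 in females, 13 with DESeq2 and 1 after 12 or 6 cycles alone, and 6 in males, 1 after 6 cycles alone. The difference between cycle counts gave 20 in females, 9 with the high point alone and 12 with the low point alone, and 1 in males, 2 with DESeq2 size factors, 5 with DESeq2, 0 with the high point alone and 3 with the low point alone. Where a value passed in at least 1 of the fits compared, directions turned in the following cases. After 12 cycles alone they turned for Unc-89 (0.048) and fln (0.0836) in females at the high point and Actn (0.0673) at the low point. After 6 cycles alone they turned for Act79B (-0.43) in females at the low point and TpnC41C (0.13) between points in constant males. Mhc turned in larvae over adults (-0.41 under fluctuation, -0.54 against males). Turns between values that did not pass are not listed.

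Leaving out 1 library gave 0 to 13 larval calls at the high point, 0 to 1 at the low point, 0 to 9 and 1 to 2 between points in constant and fluctuating larvae and 0 to 1 for their difference. In females it gave 4 to 12 between points under fluctuation and 6 to 11 for the difference between points. In males it gave 0 to 2 between points at constant temperature, 3 to 7 for the difference between points and 1 to 3 for that between cycle counts, with 2 or 3 without replicate 1 of the fluctuating high-point males at 6 cycles or replicate 5 of either fluctuating group at 12 cycles. Of 3935 values of named genes under alternatives, 3676 kept their side of the threshold, with the same direction where they passed. For values that passed in neither fit, a turned direction was not counted as a change. Depth limits the larval values of fln, TpnC4, Zasp67, Act88F, TpnC41C and Act79B.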
